A study of Mus musculus with 6 samples.

Results

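The Rab genes encode small GTPases that direct membrane traffic. Members were taken as every gene whose platform symbol is Rab followed by a number and at most 1 letter, which leaves out Rab effectors and the Rabl genes. This gave 56 genes of 23152 on the array, measured by 492 of its 269751 probe sets. The arrays profiled regulatory T cells (Tregs), sorted as CD4-positive cells with high CD25 from spleens of untreated male mice aged 45 weeks. The knockout group (KO) was DJ-1-/-, a knockout of Park7, the gene of the oxidative stress protein DJ-1, and the control group (WT) was DJ-1+/+ littermates. Each group held 3 mice with 1 Affymetrix Mouse Gene 2.0 ST array each. The sources used here do not give which part of Park7 is deleted. The question addressed was which Rab genes differed between KO and WT Tregs, with Rab6b set against its paralogue Rab6a and the other Rab genes of the Golgi.

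A Rab protein cycles between a GTP-bound form, which sits on a membrane and recruits effectors such as motors and tethers, and a GDP-bound form, which GDI proteins keep in the cytosol. Guanine nucleotide exchange factors switch a Rab on and GTPase-activating proteins switch it off. Each compartment carries its own Rabs, and in T cells they route receptors to and from the immune synapse and release secretory granules. Rab6a and Rab6b are closely related Golgi Rabs. Rab6a is found in most cell types and drives traffic from endosomes through the Golgi to the endoplasmic reticulum and the cell surface, whereas Rab6b is best known from neurons.

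All expression values are log2(intensity + 16), where a gene's value is the median of its probe sets, so differences of dim genes are understated. A gene was tested if its mean over the 6 arrays lay above the 40th percentile of all genes, 5.90. Of the 56 Rab genes 45 were tested, as were 60% of all genes, 13891 in number. The 11 that were not tested were Rab3b, Rab3c, Rab13, Rab15, Rab17, Rab25, Rab27b, Rab30, Rab34, Rab39 and Rab40b, with means of at most 5.77. Rab4a, at 5.93, was the tested member nearest to the filter, and Rab25, at 5.77, was the nearest below it. Among the tested members Rab4a and Rab38 had a KO mean under 5.90, which leaves the size of these differences uncertain.

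The median intensity per array ran from 88.6 to 100.2, and KO replicate 1 was the lowest. It also stood apart from the other 5 arrays on principal component 1 (45.6% of the variance). Park7, the targeted gene, went from 9.48 ± 0.21 in the WT arrays to 5.91 ± 0.18 in the KO arrays (SD, n = 3 each). The labelled Tregs expressed Foxp3, the Treg lineage factor, at 12.66 ± 0.02 in WT and 12.73 ± 0.03 in KO. Il2ra, the gene of CD25, on which the cells were sorted, stood at 12.55 ± 0.05 and 12.55 ± 0.12. Of the 10 Treg markers read, 8 had negative differences, with a median of -0.09, where 59.7% of all tested genes were negative.

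Rab6b was far lower in KO than in WT Tregs. It stood at 9.10, 9.59 and 8.92 in WT replicates 1 to 3 and at 6.36, 6.65 and 6.12 in KO replicates 1 to 3. Every KO array lay below every WT array, and the distance between the groups was several times the spread within either. Rab6b fell by 2.82 log2 units (SE 0.21, 95% interval -3.28 to -2.36), a 7.08-fold difference on this scale, from 9.20 ± 0.35 to 6.38 ± 0.27 (SD, n = 3 each; limma adjusted p = 0.000562). As deposited intensities, the same gene values were 533, 754 and 467 in WT and 66.1, 84.6 and 53.7 in KO. The KO mean remained above the filter of 5.90. The result did not rest on KO replicate 1: without that array Rab6b differed by -2.81 (limma adjusted p = 0.00192), and over the 6 fits that each left out 1 array the difference ran from -2.97 to -2.63 (limma adjusted p from 0.00153 to 0.00915). In an unmoderated test, which estimates each gene's spread from its own 6 values alone and passed 0 of 13891 genes (1335 at an unadjusted p under 0.05), the adjusted p of Rab6b was 0.206.

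Rab6b was the 1 Rab gene of 45 that passed an adjusted p of 0.05 in limma, or 2.22%, beside 0.274% of all tested genes (0.266% lower in KO and 0.0072% higher). That background of 38 genes fell to 4, 4, 7 and 11 genes without WT replicate 1, WT replicate 2, WT replicate 3 and KO replicate 3. Rab6b had been seen among the leading genes of these arrays before the family was chosen, so this count is a description. These are bulk samples, in which fewer cells that express a gene and less RNA per cell cannot be told apart.

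The fall of Rab6b was seen in each of its probe sets. All 7 were lower in KO with no overlap of the groups, whereas 7.64% of all probe sets showed this. The 7 differences ran from -4.51 to -1.25, with a median of -3.49. Probe set 17520931, the brightest, stood at 10.99, 11.21 and 11.16 in WT and at 7.5, 7.92 and 7.63 in KO. Probe set 17520924 stood at 8.61, 9.20 and 8.92 in WT and at 4.61, 4.59 and 4.0 in KO, where its deposited intensities were 8.43, 8.11 and 0.0204. The KO mean of this probe set and of 17520928 lay under 5.90, so the size of these 2 differences, -4.51 and -3.49, is uncertain. Probe set 17530232, whose number lies apart from the run of the other 6, differed the least, with 7.54, 7.42 and 7.52 in WT and 6.41, 6.06 and 6.26 in KO. In a limma fit over the 269751 single probe sets, 3 of which passed (0.00111%), none of these 7 passed on its own. The adjusted p was under 0.10 for 4 of the 7, with a lowest value of 0.0516, and all 7 had an unadjusted p under 0.05, as did 7.59% of all probe sets.

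**Figure D1:**
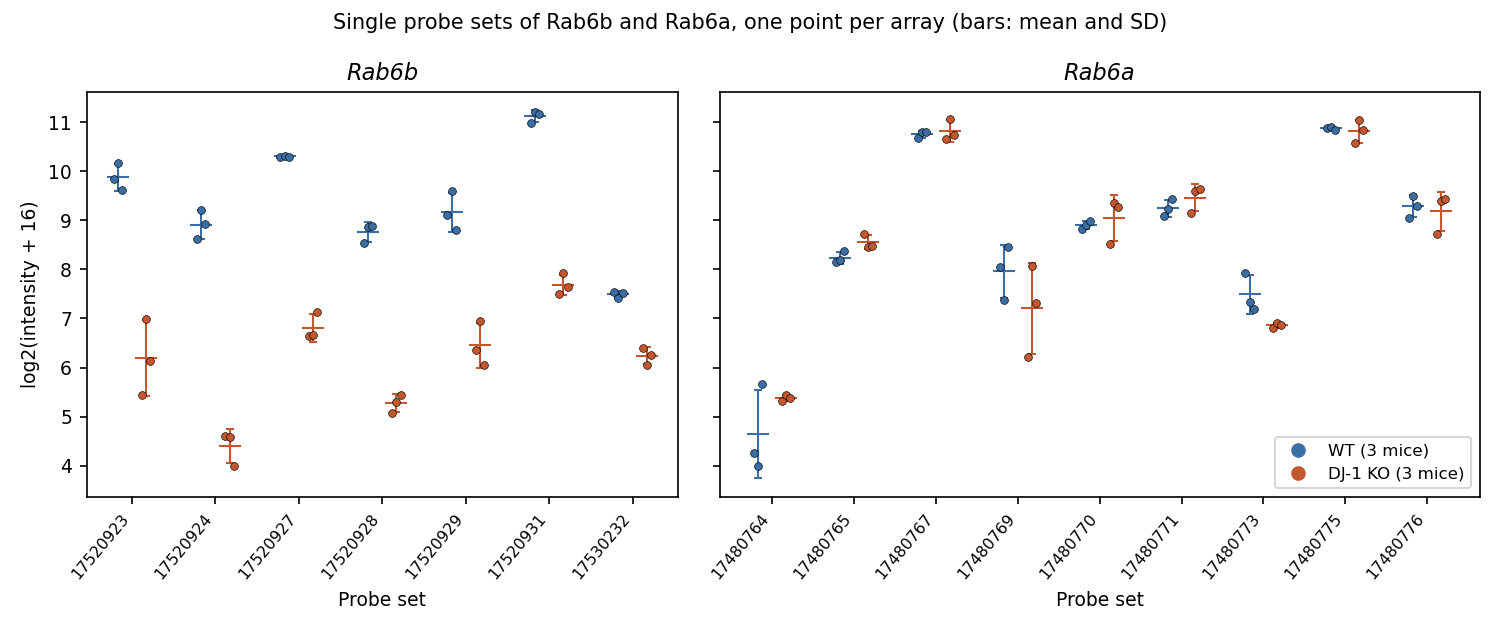
Each probe set of Rab6b (left, 7 probe sets) and Rab6a (right, 9 probe sets) on the log2(intensity + 16) scale, with 1 point per array and bars for the mean and SD of 3 WT (blue) and 3 KO (orange) mice. All 7 Rab6b probe sets have KO points below WT points, while the groups overlap in 7 of the 9 Rab6a probe sets.

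Rab6a showed no such loss. It stood at 8.82, 8.90 and 8.99 in WT and at 8.71, 9.36 and 9.27 in KO, so KO replicate 1 was the lowest array and the other KO arrays were the highest. The difference was 0.21 (SE 0.18, 95% interval -0.20 to 0.62, limma adjusted p = 0.716), and it was 0.41 without KO replicate 1 and -0.0058 with the mean in place of the median of its probe sets. Of the 9 Rab6a probe sets, 4 were lower and 5 higher in KO, with overlap of the groups in 7. Probe set 17480773 was lower (-0.63) and 17480765 higher (0.31) with no overlap, and neither passed (limma adjusted p = 0.618 and 0.688).

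The test of the difference between the paralogues took Rab6b minus Rab6a within each array. This quantity was 0.28, 0.69 and -0.07 in WT and -2.35, -2.71 and -3.15 in KO. The KO arrays lay 2.28 below the lowest WT array at the least. The change in the difference was -3.03 log2 units, from 0.30 ± 0.38 to -2.73 ± 0.40 (SD, n = 3 each). An exact two-sided permutation test gave p = 0.1, the smallest that 3 arrays against 3 allow. Rab6b had been seen among the leading genes of these same arrays, so this p describes the separation and adds no support. Probe sequences were not used here, so how far the probes of these related genes could bind each other's transcript was not tested.

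The regions upstream of the 2 start sites are shown because these paralogues gave the contrast. They hold the 250 bases before each start, 5′ to 3′ on the plus strand, from RefSeq on GRCm38.p6 (Rab6b at chr9:103111824-103112073 and Rab6a at chr7:100607336-100607585), with motif matches in capitals.
Rab6b: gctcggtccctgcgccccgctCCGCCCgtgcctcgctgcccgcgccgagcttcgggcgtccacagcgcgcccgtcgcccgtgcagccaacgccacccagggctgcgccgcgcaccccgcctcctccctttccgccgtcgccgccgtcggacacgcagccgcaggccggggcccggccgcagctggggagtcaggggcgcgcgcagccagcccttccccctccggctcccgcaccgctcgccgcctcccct
Rab6a: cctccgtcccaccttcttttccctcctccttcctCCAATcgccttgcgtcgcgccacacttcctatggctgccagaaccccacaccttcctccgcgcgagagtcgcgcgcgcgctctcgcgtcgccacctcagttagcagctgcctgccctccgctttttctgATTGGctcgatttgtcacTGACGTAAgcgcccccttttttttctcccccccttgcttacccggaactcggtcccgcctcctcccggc
The motifs searched, on both strands, were the box bound by NF-Y, CCAAT, the Sp1 site GGGCGG, the usual form of the core promoter box TATAAA, and the cyclic AMP response element TGACGTNA. No matches overlapped in these 2 regions. The Rab6b region held 1 GGGCGG match (on the minus strand, read as CCGCCC above), and the Rab6a region held 2 CCAAT matches and 1 TGACGTNA match. Over 32851 annotated upstream regions of this length, 33.8% held CCAAT, 32.7% GGGCGG, 12.4% TATAAA and 2.52% TGACGTNA. Of the 57 such regions that belong to Rab genes, 24 held CCAAT, 38 GGGCGG, 3 TATAAA and 5 TGACGTNA. The Rab6b region was 80.8% G or C with 40 CpG dinucleotides, and the Rab6a region 62.8% with 24, beside medians of 52.4% and 6 over all regions. The arrays do not measure binding or methylation at these sequences.

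Among the other 9 tested Golgi Rabs none passed in limma, and none had an unadjusted p under 0.05. Rab1 (now Rab1a) and Rab1b, which act between the endoplasmic reticulum and the Golgi, differed by -0.06 and 0.02 (limma adjusted p = 0.916 and 0.966). Rab1b was the steadiest Golgi Rab, at 10.83, 10.84 and 10.90 in WT and 10.89, 10.86 and 10.87 in KO. Rab2a and Rab2b, also of early secretory traffic, differed by -0.19 and -0.15, and without KO replicate 1 by 0.00062 and -0.0072. Rab33b, a Golgi Rab that also binds an autophagy protein complex, differed by -0.09, Rab43 by -0.07 and Rab36 by -0.15. Rab19 stood at 9.96 ± 0.04 in WT and at 9.65, 9.82 and 9.60 in KO. It was the 1 other tested Golgi Rab whose groups did not overlap, with a difference of -0.27 (SE 0.13, limma adjusted p = 0.528). All 6 Rab19 probe sets were lower in KO, 3 of them without overlap. With Rab6b, 2 of the 10 tested Golgi Rabs (20%) had no overlap, both lower in KO. Of all tested genes, 11.3% were lower in this way and 6.1% higher. Rab30 and Rab34 lay under the filter and were not tested. The Rab34 groups did not overlap either, with KO above WT (0.32).

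Rab6b minus the median of the 9 other tested Golgi Rabs was 0.23, 0.58 and -0.24 in WT and -2.41, -2.71 and -3.15 in KO. The change was -2.94 (exact two-sided permutation p = 0.1, the smallest possible, and 0.1 for both contrasts after Benjamini-Hochberg adjustment over the 2). The 2 contrasts share Rab6b, and Rab6a is among the 9 genes and is their median in KO replicates 2 and 3, so this contrast is not separate from the first. It too is a description, as Rab6b had been seen among the leading genes beforehand.

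**Figure D2:**
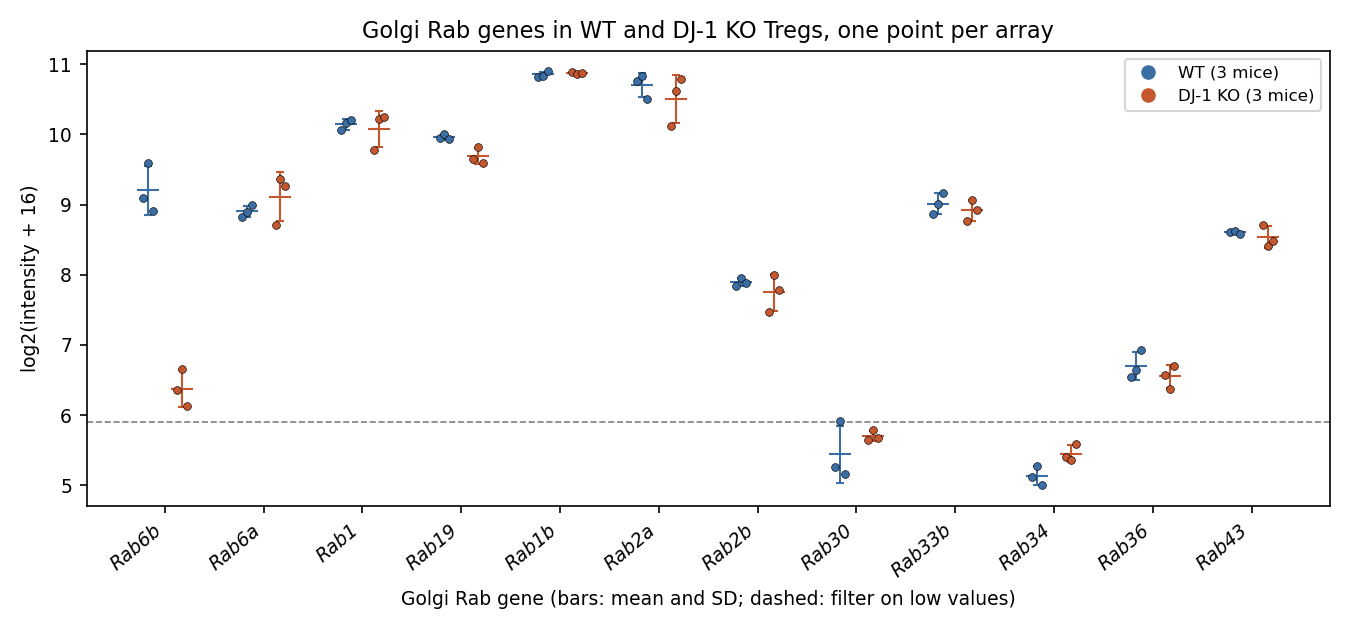
Level of the 12 Golgi Rab genes as log2(intensity + 16), with 1 point per array, bars for the mean and SD of 3 WT (blue) and 3 KO (orange) mice, and a dashed line at the filter of 5.90. Rab6b is the 1 gene whose groups lie far apart, 9.20 against 6.38, while Rab30 and Rab34 lie under the line.

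Over the family, differences from WT were small and mostly negative. Of the 45 tested Rab genes 37 had a negative difference, 82.2%, where 59.7% of all tested genes did. The median was -0.15, beside -0.05 over all genes. KO replicate 1 was the lowest of the 6 arrays in 19 of the 45 members, and WT replicate 2 was the highest in 18. Such counts were not made over all genes. The median deviation of KO replicate 1 from the gene means was -0.17 over the members and -0.09 over all tested genes. It was the lowest of the 6 arrays in both. Without KO replicate 1, 31 members were negative (68.9%, beside 51.7% of all genes), with a median of -0.11, beside -0.01 over all genes. With each array centred on its median, 36 members were negative (80%, beside 53.4% of all genes). The groups did not overlap in 12 members, or 26.7%, beside 17.4% of all tested genes, and KO was the lower group in each of the 12 (11.3% of all genes were lower in this way and 6.1% higher).

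At an unadjusted limma p of 0.05, 8 Rab genes were lower in KO and none was higher, 17.8% of the family, beside 7.67% of all genes lower and 2.99% higher. This count depended on single arrays and on the scaling. It was 4 of 45 (8.89%) without WT replicate 1, WT replicate 2, WT replicate 3 or KO replicate 3, where 8.57%, 6.74%, 8.83% and 9.73% of all genes had such a p in either direction. With median centring it was 5 (11.1%, beside 11.1% of all genes) and with quantile normalization 5 (11.1%, beside 11.4%). Besides Rab6b the 8 were Rab39b, Rab26, Rab38, Rab31, Rab23, Rab27a and Rab32. None of these 7 passed after adjustment over all genes, the lowest adjusted p being 0.138. Of the 44 tested Rab genes other than Rab6b, 41 had a 95% interval within 1 log2 unit of zero, that is, within a 2-fold change on this scale. The exceptions were Rab39b, Rab26 and Rab32, whose intervals reached -1.03, -1.04 and -1.05. These 3 and Rab6b were also the members with a difference of at least 0.5 in size, as had 5.49% of all tested genes.

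**Figure D3:**
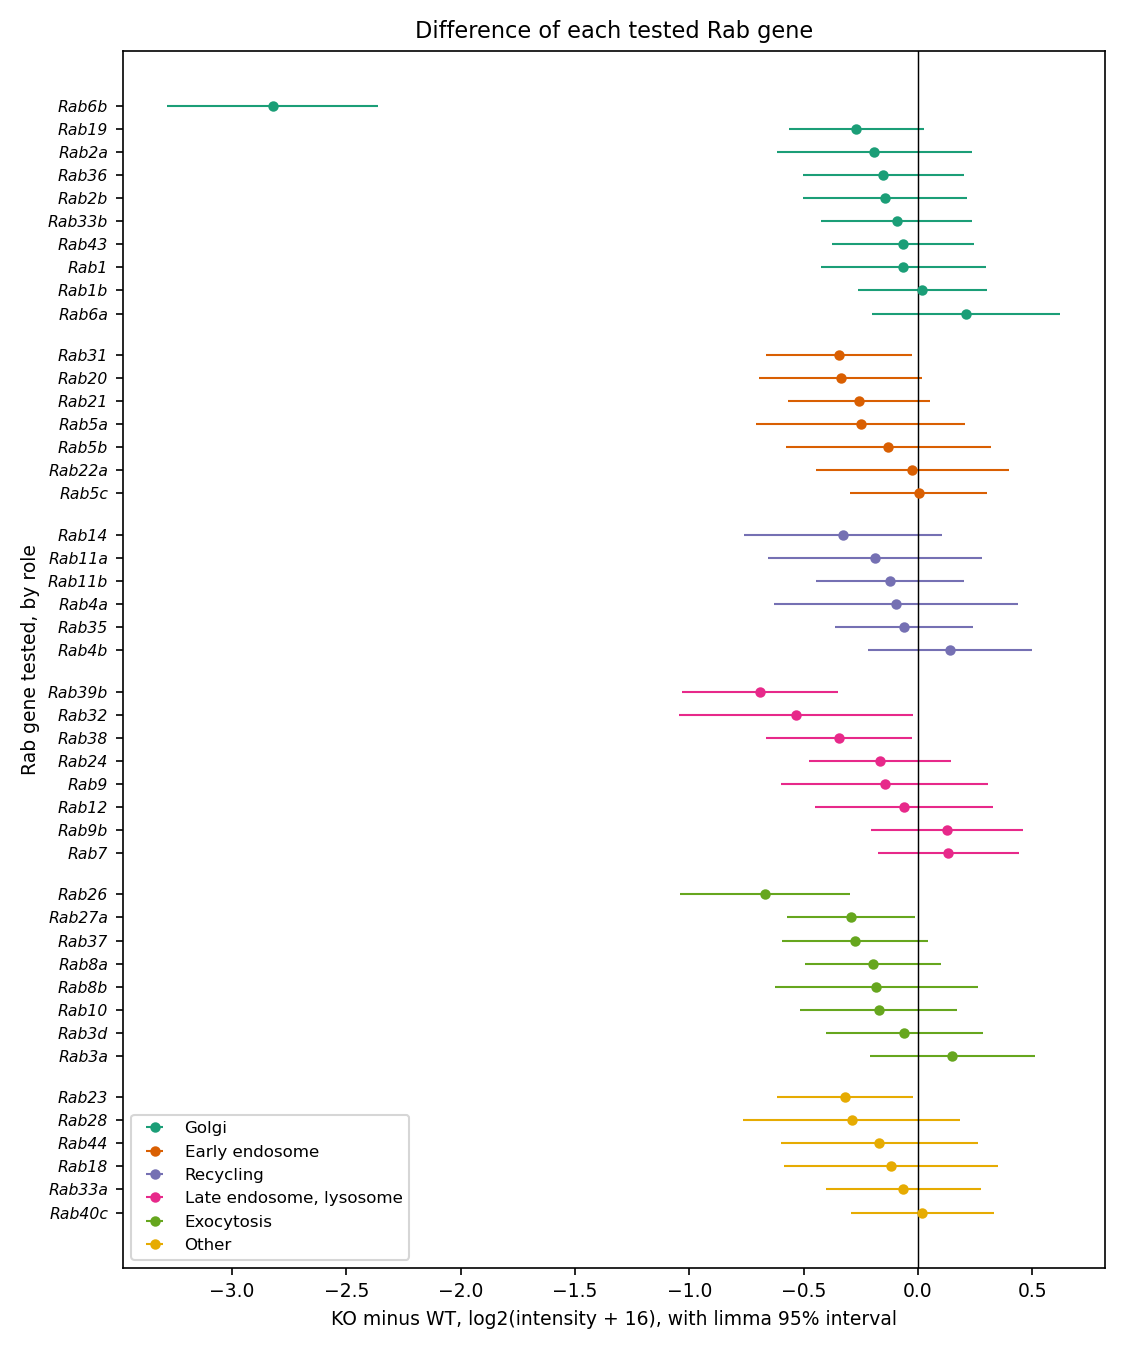
KO minus WT difference of each of the 45 tested Rab genes on the log2(intensity + 16) scale, with limma 95% intervals, coloured by compartment. Rab6b stands at -2.82, and the other 44 genes lie between -0.69 and 0.21.

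Late endosomal and lysosomal Rabs held the largest difference after Rab6b. Rab39b, a Rab linked to endosomal traffic and autophagy, stood at 6.79, 6.99 and 6.82 in WT and at 5.94, 6.25 and 6.34 in KO. The groups did not overlap, yet the difference of -0.69 (SE 0.15) did not pass (limma adjusted p = 0.138). Rab32 and Rab38, which share the delivery of cargo to lysosome-related organelles, differed by -0.53 and -0.35 (limma adjusted p = 0.445 and 0.427). Rab32 stood at 7.11, 7.20 and 7.65 in WT and at 6.56, 7.28 and 6.52 in KO, so KO replicate 2 lay inside the WT range. Rab38 was dimmer in every KO array, at 6.26, 6.05 and 6.19 in WT and at 5.97, 5.83 and 5.67 in KO. Of the 5 Rab38 probe sets 1 had KO below WT without overlap, with differences from -0.45 to 0.19. The same held for 1 of the 5 Rab32 probe sets (differences from -0.77 to 0.14). For Rab39b it held for 4 of 6 (from -0.85 to 0.16). Rab7, the main Rab of late endosomes and lysosomes, stood at 11.75, 11.86 and 11.83 in WT and at 11.84, 11.89 and 12.11 in KO, a difference of 0.13 (limma adjusted p = 0.762). Rab9 and Rab9b, of transport from late endosomes to the Golgi, differed by -0.15 and 0.13, Rab12 by -0.06 and Rab24 by -0.17.

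Among Rabs of exocytosis, Rab26, which acts in regulated secretion, stood at 8.07, 7.64 and 7.77 in WT and at 6.94, 7.21 and 7.32 in KO. The groups did not overlap, and the difference was -0.67 (SE 0.17, limma adjusted p = 0.190). It was uneven between its probe sets: of the 9 probe sets 4 had KO below WT with no overlap, and the 9 differences ran from -1.37 to 0.35. Rab27a, needed for the release of cytotoxic granules by lymphocytes, was among the tightest members, at 10.49, 10.51 and 10.51 in WT and at 10.20, 10.19 and 10.23 in KO. All 7 of its probe sets had KO below WT without overlap, as did 7.64% of all probe sets. Besides Rab27a every probe set separated in this way for Rab6b alone among the 56 genes. The share of all genes with this pattern was not counted. Of the 7 Rab27a probe sets 2 had an unadjusted limma p under 0.05, and none passed (limma adjusted p from 0.600 to 0.871). The Rab27a gene difference of -0.29 (SE 0.13, 95% interval -0.57 to -0.01) did not pass (limma adjusted p = 0.444). Rab37, another Rab of secretory granules, differed by -0.28 and Rab8a, of transport from the Golgi to the surface, by -0.20, both without overlap of the groups (limma adjusted p = 0.548 and 0.638). Of the 12 Rab37 probe sets 3 had KO below WT without overlap. Of the 13 Rab8a probe sets 1 had KO below WT and 2 had KO above WT without overlap, with differences from -0.29 to 0.47. Rab8b differed by -0.18, Rab10 by -0.17, Rab3d by -0.06 and Rab3a by 0.15.

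**Figure D4:**
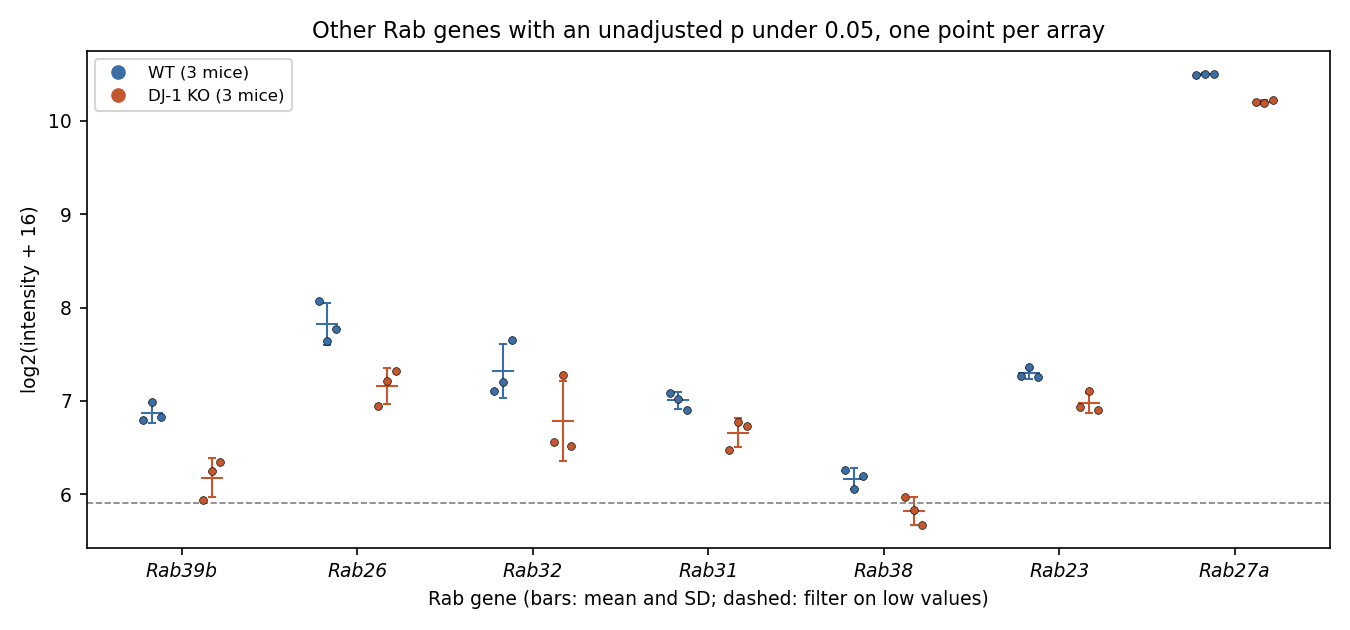
Level of the 7 Rab genes besides Rab6b with an unadjusted limma p under 0.05, as log2(intensity + 16), with 1 point per array, bars for the mean and SD of 3 WT (blue) and 3 KO (orange) mice, and a dashed line at the filter of 5.90. The Rab32 groups overlap, and those of the other 6 genes do not.

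Rabs of early endosomes had the lowest median difference of the 6 compartment groups, -0.25 over 7 tested members, of which 6 were negative. Without KO replicate 1 the median was -0.23 and all 7 were negative. The groups did not overlap in 3 of the 7, with KO lower in each, 42.9% beside 11.3% of all genes lower in this way. The exocytosis Rabs had such a separation in 4 of 8 (50%). None of the 7 early endosome Rabs passed in limma (1 at an unadjusted p under 0.05). Rab31, of traffic between the Golgi and endosomes, stood at 7.09, 7.02 and 6.90 in WT and at 6.48, 6.77 and 6.73 in KO. Its groups did not overlap, with a difference of -0.35 (limma adjusted p = 0.427). Of its 10 probe sets 2 had KO below WT without overlap, and the 10 differences ran from -0.87 to 1.26. Rab20 differed by -0.34 and Rab21, which guides integrin uptake, by -0.26, both without overlap and with limma adjusted p-values of 0.496 and 0.561. Of the 5 Rab20 probe sets 2 had KO below WT without overlap. Of the 9 Rab21 probe sets 1 had KO below WT and 1 had KO above WT without overlap, with differences from -0.67 to 0.34. The Rab5 genes, the main Rabs of endosome fusion, differed by -0.25 (Rab5a), -0.13 (Rab5b) and 0.0028 (Rab5c), and Rab22a by -0.03.

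Recycling Rabs, which return receptors to the cell surface, had no member past an unadjusted p of 0.05. The 3 with the smallest p were Rab14 (-0.33), Rab11a (-0.19) and Rab4b (0.14), with limma adjusted p-values of 0.591, 0.780 and 0.789. Without KO replicate 1 Rab14 differed by -0.12 and Rab11a by 0.04. Rab11b, Rab4a and Rab35 differed by -0.12, -0.10 and -0.06. Of the remaining Rabs, Rab23, known from ciliary and Hedgehog signalling, stood at 7.27, 7.37 and 7.26 in WT and at 6.93, 7.10 and 6.90 in KO, without overlap (-0.32, limma adjusted p = 0.438). Of the 14 Rab23 probe sets 2 had KO below WT without overlap, with differences from -0.86 to 0.27. Rab28 differed by -0.29, Rab44 by -0.17, Rab18, of lipid droplets and the endoplasmic reticulum, by -0.12, Rab33a by -0.07 and Rab40c by 0.02.

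The enzymes and effectors around the Rabs were read from lists of 150 names, of which 142 were on the array and 123 were tested. Of these 1 passed, beside 0.274% of all genes. Rin2, an exchange factor for Rab5, stood at 8.28, 7.96 and 7.96 in WT and at 6.63, 7.23 and 6.66 in KO. It fell by 1.23 log2 units (SE 0.19, limma adjusted p = 0.0360), but of the fits with 1 array left out it passed only without KO replicate 2 (adjusted p = 0.0166), with 0.0654 without KO replicate 1 and 0.212 without WT replicate 1. Eea1, the Rab5 effector that tethers early endosomes, stood at 9.68, 9.96 and 9.37 in WT and at 7.96, 8.82 and 8.85 in KO. Its groups did not overlap, and its difference of -1.13 (SE 0.25) did not pass (limma adjusted p = 0.142).

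Of the 21 tested partners of Rab6 none passed, and none had an unadjusted p under 0.05. The 3 with the smallest p were the kinesin Kif20a (-0.34), the GTPase-activating protein Rabgap1 (-0.38) and the Golgi protein Tmf1 (-0.39), with limma adjusted p-values of 0.489, 0.523 and 0.547. Of the 7 tested genes of the general Rab cycle none passed in limma and none had an unadjusted p under 0.05; Gdi2, Rabggtb and Rabif differed by -0.25, -0.29 and -0.12. Among 32 GTPase-activating proteins none passed. At an unadjusted p of 0.05, 3 had lower values in KO, among them Tbc1d7 (-0.60) and Tbc1d24 (-0.57), and 1, Tbc1d1, had higher values (0.37). These are 9.38% and 3.12% of the list, close to the 7.67% and 2.99% of all genes. Among the 36 exchange factors Rin2 alone passed, and at an unadjusted p of 0.05, 2 were lower (5.56%) and 1 higher (2.78%). Of 32 other effectors none passed in limma, and 4 were lower at an unadjusted p of 0.05 (12.5%, beside 7.67% of all genes), with Rilpl2 (-0.52) and Rab11fip4 (-0.45) next to Eea1 by p. The remaining genes in these counts, named after their values were seen, were Tbc1d19 (-0.45), Trappc1 (-0.41), Als2cl (0.45) and Sytl1 (-0.34).

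Markers of cell state and of other cells were read beside the fall of Rab6b. The marker lists were chosen with earlier results of these data known, so their counts are descriptions. All 13 tested effector Treg markers had negative differences, where 59.7% of all tested genes did, with a median of -0.76, beside -0.05 over all genes. Of the 13, 2 passed in limma, beside 0.274% of all genes. These were Lag3 (-1.58, limma adjusted p = 0.0198) and Tnfrsf9 (-2.40, limma adjusted p = 0.0209). Single arrays ended both calls: the limma adjusted p of Lag3 was 0.112, 0.113, 0.0878 and 0.0928 without WT replicate 1, WT replicate 2, WT replicate 3 and KO replicate 3, and that of Tnfrsf9 was 0.128, 0.116 and 0.104 without WT replicates 1, 2 and 3. The list's summed intensity was 20171 to 23182 in WT and 9835 to 14752 in KO. Of the macrophage and monocyte markers 6 were tested, 6 had negative differences and Vcam1 passed with all 6 arrays (-1.15, limma adjusted p = 0.0343) but in none of the fits with 1 array left out (adjusted p from 0.0521 to 0.146). The summed intensity of the list was 716 to 1105 in WT and 555 to 698 in KO, with Emr1, Lyz2 and Mertk under the filter. Plasma cell markers summed to 1949 to 2771 and 1641 to 2188, and NK and CD8 markers to 2335 to 2970 and 1791 to 2223, without overlap for the NK and CD8 list. Treg markers summed to 45817 to 46021 in WT and 42762 to 44979 in KO, also without overlap, and 8 of 10 had negative differences. The sums of plasma cell markers overlapped between the groups, as did those of B cell markers (1030 to 1401 in WT, 1042 to 1229 in KO, with Ms4a1 and Pax5 among the 5 under the filter), dendritic cell (379 to 498, 393 to 450), neutrophil (335 to 367, 329 to 373) and erythroid and platelet markers (681 to 750, 535 to 775). Of the 36 tested markers on those 5 lists and on the NK and CD8 and Treg lists, 0 passed in limma. An unadjusted limma p under 0.05 was found for 4 (11.1%), Ncr1, Nkg7, Igj and Prdm1, all lower in KO. Of all genes, 7.67% were lower at this p and 2.99% higher. A summed intensity weighs the brightest genes of a list most. These were Xbp1 for plasma cells (10.73 in WT), Nkg7 for NK and CD8 (10.51) and Cd79b for B cells (9.57). Prdm1 is on both the plasma cell and the effector Treg list. Of the 4 tested plasma cell markers 3 were negative, among them Igj (-0.85, limma adjusted p = 0.362). Of the 7 tested NK and CD8 markers 4 were negative, among them Ncr1 (-0.85, limma adjusted p = 0.212). The part of such cells or states in the difference of Rab6b was not tested. No Rab gene of the 55 with a RefSeq match lay within 10 Mb of Park7.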

How the data were processed

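Per the labels, the deposited values are intensities on a linear scale, made by the authors with Affymetrix Expression Console 1.4 as exon-level probe sets summarised with PLIER. The background correction, normalization between arrays and genome build are not given in the sources. Groups came from the sample titles, and each array has its own mouse in the labels.

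Intensities were taken as log2(intensity + 16) with no further normalization. Symbols came from the platform annotation: 233753 of 269751 probe sets had 1 symbol, 5106 several and 30892 none, and 10 probe sets that name a Rab gene beside another gene were left out. Probe sets of a gene were summarised by their median. Genes under the 40th percentile of the mean (5.90) were left out. KO and WT were compared over all 13891 remaining genes with limma 3.58.1 in R 4.3.3 (lmFit, eBayes, two-sided, Benjamini-Hochberg over all genes, threshold 0.05), tested on simulated data. Contrasts between Rab genes used exact permutation tests, which cannot go below 0.10 with 3 against 3. The number of arrays limits the precision.

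RefSeq names (GRCm38.p6) matched 55 of 56 members by symbol or unique synonym; the synonym Rab1 is shared by a second gene. The text names all Golgi Rabs, members with an unadjusted p under 0.05, the 3 smallest p of each other role, the passing genes of each list or else its 3 smallest p, and gives the others by value. The members and lists were chosen with earlier results of these data known. Alternatives were other pseudocounts, filters, probe-set summaries, normalizations and variance models, a replicate block and leaving out each array.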

Additional observations from a re-analysis of the deposited data

How the results depend on the processing

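Rab6b kept its direction under all 18 alternatives and passed in 17, with differences from -3.22 (mean of probe sets) to -2.28 (pseudocount 64); the exception was the unmoderated test (adjusted p = 0.206), which also ended the call of Park7 (-3.57, adjusted p = 0.0905) and left 0 Rab genes. With a pseudocount of 64 the change in Rab6b minus Rab6a was -2.47 and that in Rab6b minus the other Golgi Rabs -2.38. The count of Rab6b probe sets past the threshold, 0 of 7, was 3 with a pseudocount of 1, of 64, quantile normalization or array weights, 4 with median centring or an adjusted p of 0.10, and 2 with an intensity trend or with the filter at the 60th percentile, which kept 4 of the 7. The count of Rab regulators and effectors past the threshold, 1, was 0 with a pseudocount of 1, no filter, bright probe sets only or the unmoderated test and 2 with array weights, and 0 to 1 with an array left out.

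Of the 24 other named Rab genes, none of which passed, 7 changed sign under some alternative. With 1 array left out, Rab1 ran from -0.15 to 0.086, Rab11a from -0.31 to 0.038 and Rab2a from -0.33 to 0.00062, each positive only without KO replicate 1, and Rab44 ran from -0.32 to 0.011, positive only without KO replicate 2. Rab1 also differed by 0.048 with array weights, Rab14 by 0.022 with bright probe sets only, and Rab1b by -0.11 and Rab6a by -0.0058 with the mean of probe sets. The causes of these changes were not tested.

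The WT and KO samples share replicate numbers, but the labels do not say that a number pairs 2 mice. Deviations of same-numbered arrays correlated at 0.15, 0.17 and 0.010, and WT replicate 3 did not correlate best with its own number. With the replicate number as a block, Rab6b differed by -2.82 (adjusted p = 9.58e-05), 1 Rab gene passed, and 67 rather than 38 of all genes passed. Over all genes, 4 to 37 passed with 1 array left out. Low signal limits the 11 Rab genes under the filter.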
